A study of Mus musculus with 4 samples.

Results

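The genes described here are 10 genes of the cyclin-dependent kinase (CDK) inhibitor and p53 pathway: Cdkn1a, Cdkn1b and Cdkn1c of the Cip/Kip family, Cdkn2a, Cdkn2b, Cdkn2c and Cdkn2d of the Ink4 family, and Trp53 with its targets Mdm2 and Ccng1. They were taken by gene symbol from the 52459 genes listed in the count table, and all 10 were found. They were measured in intestinal stem cells (ISCs) of wild-type female C57/Bl6 mice in full-length (FL) RNA-seq libraries, with 2 libraries from young mice of 2 months (ISC_2mth) and 2 from old mice of 22 months (ISC_22mth). Each library came from the sorted cells of a pool of 5 animals, so animals within a pool could not be compared, and no treatment is named for either age. ISCs were isolated from dissociated small intestinal crypts by flow cytometry without a reporter gene, by a gate that kept EPCAM+ cells with medium CD24 and high CD44 and EPHB2 and left out CD45+ and CD31+ cells. The comparison of the ages asks whether the transcripts of these genes differed between young and old ISCs.

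CDK inhibitors bind cyclin-dependent kinases and hold cells in G1. The Ink4 proteins bind CDK4 and CDK6, the partners of D-type cyclins, whereas the Cip/Kip proteins bind a wider range of cyclin-CDK complexes, including those of CDK2. The transcription factor p53 is stabilised after DNA damage and other stress and induces, among many genes, the CDK inhibitor Cdkn1a, its own ubiquitin ligase Mdm2 and the cyclin G1 gene Ccng1. In the intestinal crypt, Lgr5-positive stem cells divide often, and p53 and CDK inhibitors are best known there for arrest and cell death after irradiation.

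None of the 8 genes that had enough reads to be tested differed between the ages at a false discovery rate (FDR) of 0.05 with edgeR's quasi-likelihood test. Over all 13692 genes tested, 309 passed this threshold (2.26%), 223 higher (1.63%) and 86 lower (0.628%) in old ISCs. At an unadjusted p under 0.05, 2 of the 8 genes passed, Cdkn2c and Ccng1, both higher in old ISCs. The same rule took 16.9% of all genes tested, with 9.26% higher and 7.65% lower. DESeq2, limma voom with and without sample quality weights and edgeR's likelihood ratio test each called 0 of the 8. The pools of the ages did not overlap for 4 of the 8 genes, with old ISCs above young ISCs for Cdkn2b, Cdkn2c and Ccng1 and below for Mdm2. Across all genes tested the pools did not overlap for 47.6%, with old above for 24.0% and old below for 23.6%, so the count for these genes was near the background. The median log2 fold change of the 8 genes was 0.14, against −0.0049 for all genes tested, with 5 genes above 0 and 3 below.

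Library totals ran from 11662654 to 15975698 counts, and from 3852178 to 4593004 counts remained after removing the mitochondrially encoded genes. The mitochondrial share was 62.6% and 65.7% in the young pools and 73.8% and 72.9% in the old pools, and its part in the results was not tested. Scaling by total counts in place of TMM lowered the median of all genes by 0.49 on the log2 scale, so the text gives a fold change under that scaling with its value relative to this shift. Lgr5, which marks crypt base stem cells, averaged 231 ± 24.0 CPM (normalised counts, scaled to a common library total; SD, n = 2 pools) in young and 207 ± 1.76 in old ISCs, and 0 of the 13 stem cell markers passed FDR 0.05 with edgeR's quasi-likelihood test (7 passed an unadjusted p under 0.05, 2 higher and 5 lower). Of these markers 2 were called by limma voom, with and without sample quality weights, and by the likelihood ratio test, and 1 by DESeq2, all lower in old ISCs. Markers of other epithelial cells moved with age, and in bulk RNA more cells of a type and more RNA per cell cannot be told apart. For enterocytes 3 of 9 markers passed FDR 0.05, all higher in old ISCs, and the summed marker level was 395 and 530 CPM in young and 899 and 817 CPM in old pools. For Paneth cells 3 of 10 passed, all higher, with sums of 1078 and 848 CPM in young and 2425 and 972 CPM in old pools, the first old pool standing apart. For tuft cells 1 of 3 tested markers (7 listed) passed, higher in old ISCs, with sums of 2.90 and 4.51 CPM in young and 8.85 and 5.49 CPM in old pools, and Il25 was at 0 counts in every pool. For goblet cells 0 of 8 markers passed (1 higher at an unadjusted p under 0.05), with sums of 1856 and 2454 CPM in young and 2521 and 1985 CPM in old pools, and for enteroendocrine cells 0 of 7 tested (1 higher at an unadjusted p under 0.05), with sums of 41.3 and 153 CPM in young and 130 and 94.8 CPM in old pools. Of 15 leukocyte markers Itgam alone was tested, and it was higher in old ISCs, while the other 14 summed to 16 and 13 counts in young and 29 and 12 in old pools, with 7 of them at 0, among them Cd3g, Tyrobp and Adgre1. Of 10 endothelial and mesenchymal markers Pdgfrb alone was tested (FDR 0.297, edgeR), and their sum was at most 2.25 CPM in any pool, with Cdh5 and Kdr at 0. The gate leaves out leukocytes by CD45, endothelial cells by CD31 and, by its upper limit on CD24, Paneth cells with high CD24. The part of these cell types in the values below was not tested.

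Among the Cip/Kip genes, Cdkn1b was the most abundant and Cdkn1c was barely detected. Cdkn1a (chr17:29090976-29100727, plus strand, GRCm38), which encodes p21 and is the best known p53 target among the CDK inhibitors, had 68 and 101 counts in the young pools and 113 and 81 in the old pools. This corresponded to 4.69 and 6.69 CPM in young and 8.55 and 6.63 CPM in old ISCs, where the lower old pool lay just below the higher young pool. The means were 5.69 ± 1.42 and 7.59 ± 1.36 CPM (SD, n = 2), with a log2 fold change of 0.42 (SE 0.26, 95% interval −0.13 to 0.96, FDR 0.448, edgeR), which turned to −0.069 when libraries were scaled by total counts and was 0.42 relative to the shift of all genes. The interval covered folds from 0.914 to 1.95, and the log2 fold change was 0.18 without the first young pool, 0.69 without the second young pool and 0.22 without the first old pool. Of the 50-nt stretches of Cdkn1a transcripts, 8.49% occur in another gene, most of them in AC167363.2, which lies on the opposite strand and overlaps Cdkn1a exons over 273 bp, and whether the counting used strand is not given in the sources used here.

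Cdkn1b (chr6:134920401-134925513, plus strand), which encodes p27, had 413 and 361 counts in young and 350 and 280 in old pools. At 28.5 and 23.9 CPM in young and 26.5 and 22.9 CPM in old ISCs, the pools of both ages overlapped. The log2 fold change was −0.08 (SE 0.16, 95% interval −0.41 to 0.25, FDR 0.837, edgeR), so folds outside 0.751 to 1.19 lay beyond the interval. Its sign depended on single pools, at 0.048 without the first young pool and 0.02 without the second old pool. Cdkn1c (chr7:143458339-143461050, minus strand), the imprinted gene of p57, had 10 and 1 counts in young and 1 and 7 in old pools, which failed the filter on low counts. In CPM these were 0.690 and 0.0663 in young and 0.0757 and 0.573 in old ISCs, so that 1 pool of each age was near 0 and no fold was given. The antisense gene Gm44732, which overlaps Cdkn1c exons over 625 bp, was at 0 counts in every pool.

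**Figure D1:**
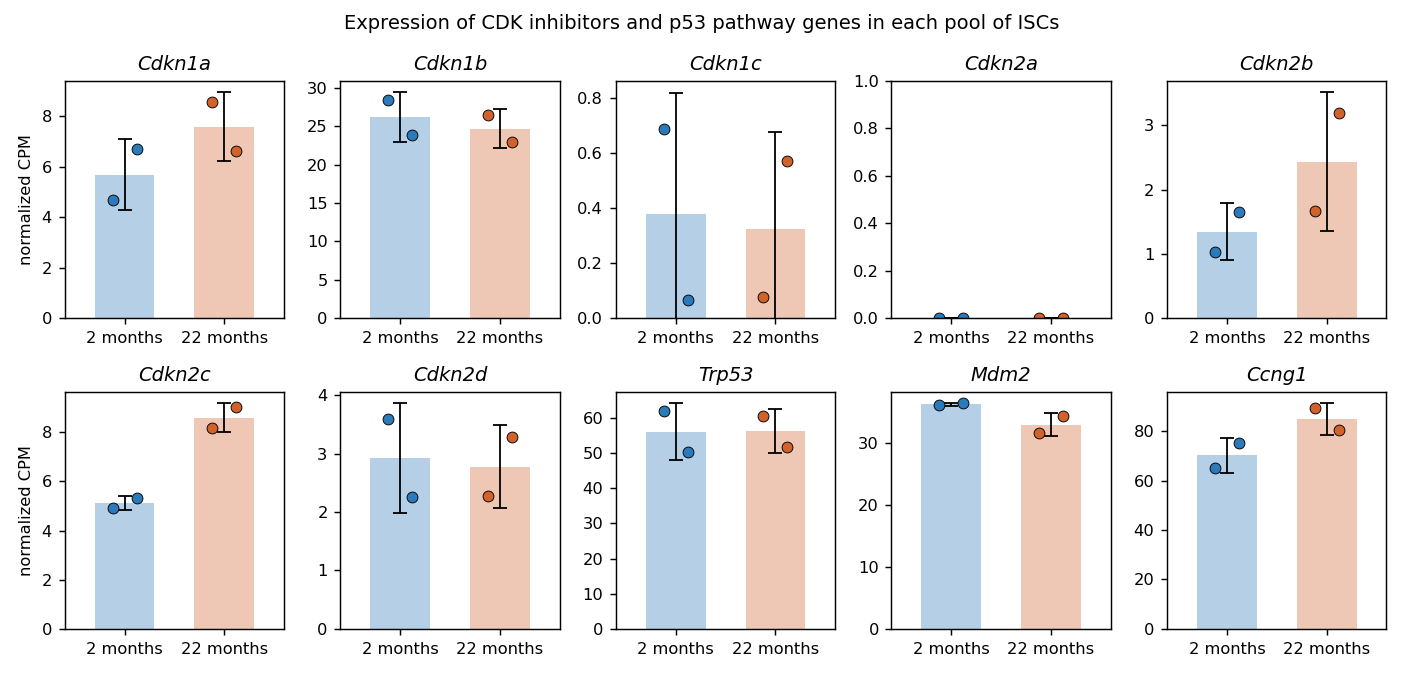
Normalised CPM of each of the 10 genes in the 2 young (ISC_2mth) and 2 old (ISC_22mth) pools, 1 panel a gene, with bars for the mean of the 2 pools, error bars for the SD (cut off at 0 for Cdkn1c) and points for single pools. Both old pools of Cdkn2c, at 8.17 and 9.01 CPM, lie above both young pools, at 4.90 and 5.30 CPM, whereas Cdkn2a is at 0 in all 4 pools and the Trp53 pools of the ages lie over each other.

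Among the Ink4 genes, Cdkn2a was not detected, Cdkn2c had the lowest p of the 8 genes tested and the pools of Cdkn2d overlapped. Cdkn2a (chr4:89274471-89294653, minus strand) encodes p16 and, from a second first exon in another reading frame, Arf, an inhibitor of Mdm2. Its count was 0 in all 4 pools. A floor of 3 counts allows a level of up to 0.207 and 0.199 CPM in the young and 0.227 and 0.246 CPM in the old pools, counting error only. The 2 annotated transcripts of Cdkn2a have 852 and 895 exonic bp, share 575 bp, and are counted here as 1 gene, so the count of 0 covers both p16 and Arf. The 2 promoters of Cdkn2a in RefSeq (GRCm38.p6) are shown because this was the only gene of the 10 without a read, with the 100 bases before each start, 5′ to 3′ on the minus strand, and CG dinucleotides in capitals. The upstream start (chr4:89294620-89294719) comes first and the downstream start (chr4:89282193-89282292) second.
Cdkn2a upstream start: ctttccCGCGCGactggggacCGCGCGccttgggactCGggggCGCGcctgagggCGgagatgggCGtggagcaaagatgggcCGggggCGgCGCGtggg
Cdkn2a downstream start: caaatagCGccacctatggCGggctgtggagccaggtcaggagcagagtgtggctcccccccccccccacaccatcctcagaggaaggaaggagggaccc
These stretches hold 15 and 2 CG dinucleotides. Over the whole 300-base windows, from 250 bases before to 50 bases after the start, the upstream window had 77.0% GC and an observed over expected CpG ratio of 1.04, and the downstream window 60.3% and 0.44. Of 32841 promoter windows of the same length, 33.3% had a ratio above 0.6 with over 50% GC, and the upstream window was among them. DNA methylation was not measured in these libraries.

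Cdkn2b (chr4:89306299-89311039, minus strand), the neighbour of Cdkn2a that encodes p15, a TGF-β responsive inhibitor, had 15 and 25 counts in young and 22 and 39 in old pools. In CPM these were 1.03 and 1.66 in young and 1.66 and 3.19 in old ISCs, with the lower old and the higher young pool equal to 3 digits. The log2 fold change was 0.84 (SE 0.51, 95% interval −0.23 to 1.91, FDR 0.427, edgeR), and without the second old pool it was 0.30.

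Cdkn2c (chr4:109660876-109667189, minus strand), which encodes p18, had 71 and 80 counts in young and 108 and 110 in old pools. At 4.90 and 5.30 CPM in young and 8.17 and 9.01 CPM in old ISCs, the old pools stood above the young pools by more than the spread within either age. The means were 5.10 ± 0.285 and 8.59 ± 0.591 CPM (SD, n = 2). The log2 fold change of 0.75 (SE 0.24, 95% interval 0.25 to 1.25) lay at percentile 95.5 of all genes tested but did not pass the adjustment over all genes (FDR 0.114, edgeR). It ranged from 0.68 to 0.82 with any 1 pool left out, and the lowest FDR over the 17 alternative fits was 0.0729 and the highest 0.482. Scaled by total counts it was 0.26, which was 0.75 relative to the shift of all genes.
The 3 tested genes whose levels over the 4 libraries followed Cdkn2c most closely, by the root mean square difference of log2 CPM centred on each gene's mean among 8299 genes, were Bche at 0.0315, Pkp2 at 0.0384 and Txndc17 at 0.0394. Bche (butyrylcholinesterase), Pkp2 (the desmosomal protein plakophilin 2) and Txndc17 (a thioredoxin-domain protein) had log2 fold changes of 0.64, 0.68 and 0.76. Since they were chosen for a pattern like that of Cdkn2c, a change of like size was fixed by the choice, and these values are a description.

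Cdkn2d (chr9:21288410-21291407, minus strand), which encodes the Ink4 protein p19, had 52 and 34 counts in young and 30 and 40 in old pools. At 3.59 and 2.25 CPM in young and 2.27 and 3.28 CPM in old ISCs, the old pools lay between the young pools. The log2 fold change was −0.08 (SE 0.39, 95% interval −0.89 to 0.74, FDR 0.946, edgeR). It changed sign to 0.30 without the first young pool and to 0.17 without the first old pool, and its interval, from 0.538-fold to 1.67-fold, was wide at these counts.

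**Figure D2:**
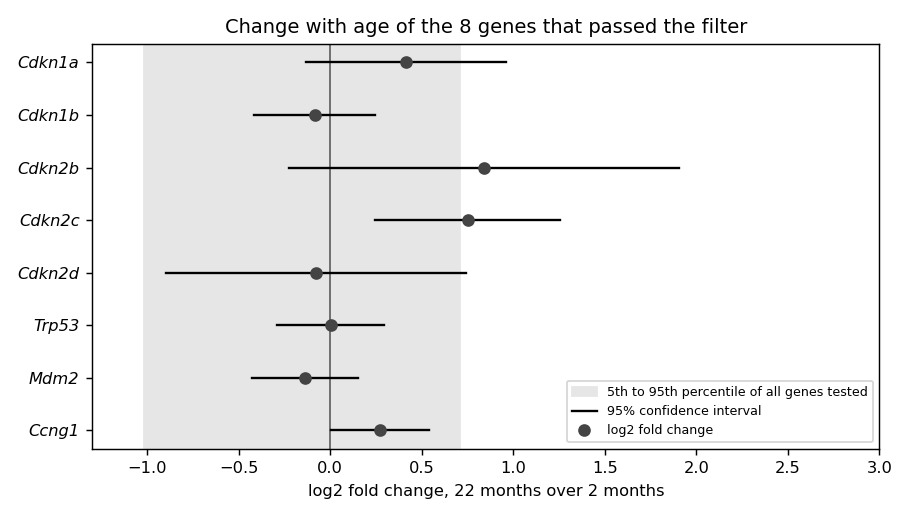
Log2 fold change of old (ISC_22mth) over young (ISC_2mth) ISCs, on the horizontal axis, for the 8 genes tested, with points for the edgeR estimate, bars for its 95% interval and a grey band from the 5th to the 95th percentile of all 13692 genes tested. The intervals of Cdkn2c (0.25 to 1.25) and Ccng1 (0.01 to 0.54) lie above 0 before adjustment over all genes, and the other 6 cross 0. Under scaling by total counts (not drawn) the estimates of Cdkn1a, Trp53 and Ccng1 turn below 0, and relative to the shift of all genes they are 0.42, −0.0071 and 0.28.

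Trp53 and its 2 targets outside the inhibitor families were well counted. Trp53 (chr11:69580359-69591873, plus strand) had 897 and 761 counts in young and 802 and 632 in old pools. At 61.9 and 50.4 CPM in young and 60.7 and 51.8 CPM in old ISCs, each old pool lay between the young pools, and the means were 56.2 ± 8.10 and 56.2 ± 6.31 CPM (SD, n = 2). The log2 fold change was 0.0027 (SE 0.14, 95% interval −0.29 to 0.29, FDR 0.996, edgeR), so transcript changes beyond 0.818-fold or 1.23-fold lay outside the interval. Being this near 0, its sign varied with the scaling and with single pools, at −0.14 without the second young pool, −0.12 without the first old pool and −0.50 under scaling by total counts (FDR 0.0167), which was −0.0071 relative to the shift of all genes. Protein level and stability, through which p53 is chiefly controlled, were not measured. The pseudogene Trp53-ps, with which most of the 3.95% of shared 50-nt stretches of Trp53 are shared, was at 0 counts in every pool.

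Mdm2 (chr10:117688875-117710758, minus strand), the ubiquitin ligase that degrades p53, had 522 and 548 counts in young and 417 and 418 in old pools. In CPM these were 36.0 and 36.3 in young and 31.6 and 34.2 in old ISCs, with both old pools below both young pools by a small margin. The log2 fold change was −0.14 (SE 0.14, 95% interval −0.43 to 0.15, FDR 0.664, edgeR). Without any 1 pool it stayed between −0.19 and −0.08. Ccng1 (chr11:40748552-40755311, minus strand), which encodes cyclin G1, a p53 target that recruits a phosphatase to Mdm2, had 946 and 1137 counts in young and 1183 and 983 in old pools. At 65.3 and 75.3 CPM in young and 89.5 and 80.5 CPM in old ISCs, the ages did not overlap and old ISCs were higher. The means were 70.3 ± 7.12 and 85.0 ± 6.37 CPM (SD, n = 2), with a log2 fold change of 0.27 (SE 0.13, 95% interval 0.01 to 0.54, FDR 0.285, edgeR), which turned to −0.21 under scaling by total counts and was 0.28 relative to the shift of all genes. This change lay at percentile 78.8 of all genes tested, and it was 0.12 under GC content and length offsets (FDR 0.702) and 0.18 without the first young pool. The p53 targets Cdkn1a, Ccng1 and Mdm2 thus had estimates of 0.42, 0.27 and −0.14, none of which passed FDR 0.05.

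p53 binds DNA as a tetramer at a pair of half-sites, and the promoters of these genes were searched for the p53 half-site, a palindrome that reads alike on both strands, and for the full site of a pair of half-sites up to 13 bases apart. RefSeq windows of 250 bases before to 50 bases after the start (GRCm38.p6) were matched for 9 of the 10 genes, 12 windows in all. A half-site was found in 5 of the 12 windows, those of Cdkn1a (1 of its 2 starts), Cdkn2d, Trp53, Mdm2 and Ccng1, and in 2745 of all 32841 windows (8.36%). A full site was found in 1 of the 12, that of Cdkn1a with a spacer of 12 bases, and in 24 of all windows (0.0731%). The search took exact matches only, so this pair and its spacer hold for exact matches. In Cdkn1a the bases tgacatgttc, directly after GAACATGTCT, miss the half-site pattern in their first letter alone and were not marked. The stretches around these matches are shown so that p53, its ligase and its targets can be read side by side, 5′ to 3′ on the strand of the gene, with the half-sites in capitals.
Cdkn1a, chr17:29090886-29090957, plus strand: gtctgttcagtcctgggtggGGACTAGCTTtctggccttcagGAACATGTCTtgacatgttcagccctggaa
Ccng1, chr11:40755442-40755491, minus strand: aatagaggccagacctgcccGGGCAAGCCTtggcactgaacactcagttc
Mdm2, chr10:117710915-117710964, minus strand: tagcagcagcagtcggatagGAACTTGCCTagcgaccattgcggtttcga
Trp53, chr11:69580264-69580313, plus strand: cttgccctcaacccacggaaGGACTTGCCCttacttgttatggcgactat
Cdkn2d, chr9:21291282-21291331, minus strand: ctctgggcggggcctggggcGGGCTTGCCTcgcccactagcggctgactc
In Cdkn1a the marked half-sites begin 73 and 51 bases before the upstream of its 2 starts, and the window of the downstream start held none. Those of the other genes begin 185 bases before the start in Ccng1, 186 in Mdm2, 75 in Trp53 and 102 in Cdkn2d. Of these 5 genes, Cdkn1a and Ccng1 had positive estimates, Mdm2 and Cdkn2d negative ones and Trp53 one of 0.0027, and none passed FDR 0.05. These matches describe the letters in the windows, and binding of p53 was not measured.

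Levels of different genes were compared per length, as normalised CPM per kb of exonic sequence (RPKM) averaged over the 4 pools. Ccng1 was the most abundant of the 10 at 22.1 RPKM, followed by Trp53 at 13.9, Mdm2 at 6.79 and Cdkn1b at 5.59 RPKM. Cdkn2c (2.55 RPKM), Cdkn1a (1.87), Cdkn2d (1.81) and Cdkn2b (1.36) came next, and Cdkn1c reached 0.172 RPKM. The single pools of Ccng1, from 18.6 to 25.5 RPKM, did not overlap those of Trp53, from 12.5 to 15.3, and the pools of Trp53 did not overlap those of Mdm2, from 6.21 to 7.14 RPKM. Mdm2 overlapped Cdkn1b, whose pools ranged from 5.04 to 6.26 RPKM. The pools of Cdkn1b lay above those of the 4 genes that followed, which overlapped each other within 0.745 to 3.35 RPKM. Taking the longest transcript as the length exchanged the places of Cdkn2c and Cdkn1a and left the other 8 ranks as they were, but raised Trp53 to 17.2, Mdm2 to 10.98 and Cdkn1a to 3.19 RPKM with Ccng1 at 22.1 and Cdkn1b at 5.59. Both the separation of Ccng1 from Trp53 and the nearness of Mdm2 and Cdkn1b therefore depend on the length taken. Summed over each family, the Ink4 genes reached 4.85 and 4.60 RPKM in young and 5.68 and 7.73 RPKM in old pools, and the Cip/Kip genes 7.92 and 7.17 RPKM in young and 8.26 and 7.19 RPKM in old pools.

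The partners of these genes were described with lists of the same pathway. Of 185 listed genes other than the 10, 154 were tested, and 4 passed FDR 0.05 (edgeR), 3 of them with higher and 1 with lower levels in old ISCs, where 2.26% of all genes did. Their median log2 fold change was −0.02, with 73 above 0 and 81 below, beside a median of −0.0049 for all genes. All 4 calls, described below, were lost under GC content and length offsets, where the log2 fold changes were −0.98 for Trp53i11 (FDR 0.0611), 0.49 for Perp (FDR 0.161), 0.42 for Npm1 (FDR 0.141) and 0.39 for Casp1 (FDR 0.198, edgeR). The medians of the single lists given below rested on few genes and single pools, and 7 of the 10 list medians changed sign when 1 pool was left out.

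Of 23 CDKs, cyclins, RB family and E2F genes of the G1/S transition, all were tested and 0 passed FDR 0.05, with 2 higher and 3 lower at an unadjusted p under 0.05 and a median of −0.03. Cdk6, the kinase bound by the Ink4 proteins, had 7748 and 7590 counts in young and 5769 and 4621 in old pools, both old pools below both young pools. Its log2 fold change was −0.35 (SE 0.11, FDR 0.109, edgeR), and it passed FDR 0.05 in 5 of the 17 alternative fits. The D-type cyclin Ccnd3 had a log2 fold change of −0.89 (FDR 0.150), the transcription factor E2f2 one of −0.51 (FDR 0.121) and the retinoblastoma gene Rb1 one of 0.44 (FDR 0.161). None of the 22 upstream regulators of the CDK inhibitors passed FDR 0.05, with 1 higher and 0 lower at an unadjusted p under 0.05 and a median of −0.02. The lowest p values in that list belonged to genes such as Myc, a repressor of CDK inhibitor genes, at 0.24 (FDR 0.288), and the Polycomb gene Cbx7 at −0.41 (FDR 0.309). Of 22 proliferation genes 0 passed, with 2 higher at an unadjusted p under 0.05 and a median of 0.02. Rrm2, the ribonucleotide reductase subunit made in S phase, came nearest at 344 and 387 counts in young and 457 and 462 in old pools, with a log2 fold change of 0.55 (SE 0.14, FDR 0.0510) and an FDR under 0.05 in 5 of the 17 alternative fits, and Mki67 had 0.18 (FDR 0.377).

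Of 27 regulators of p53, 1 passed FDR 0.05, and the median of 0.07 was −0.02 without the second young pool and −0.01 without the second old pool. This was Npm1, which encodes the nucleolar protein nucleophosmin that binds Arf and Mdm2, with 4119 and 4544 counts in young and 5316 and 5870 in old pools. Its means were 293 ± 11.97 and 442 ± 55.5 CPM (SD, n = 2), with a log2 fold change of 0.59 (SE 0.11, FDR 0.00997, edgeR). This value is uncertain, since 24.3% of the 50-nt stretches of Npm1 occur in other genes, most often the pseudogene Gm9118, and how reads that align to several places were counted is not given in the sources used here. Without the first young pool its FDR was 0.0591. The other regulators of p53 were below the threshold, among them the p53 inhibitor Mdm4 at −0.27 (FDR 0.306), the kinase Hipk2 at −0.27 (FDR 0.240) and the phosphatase gene Ppm1d, itself a p53 target, at 0.38 (FDR 0.271).

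**Figure D3:**
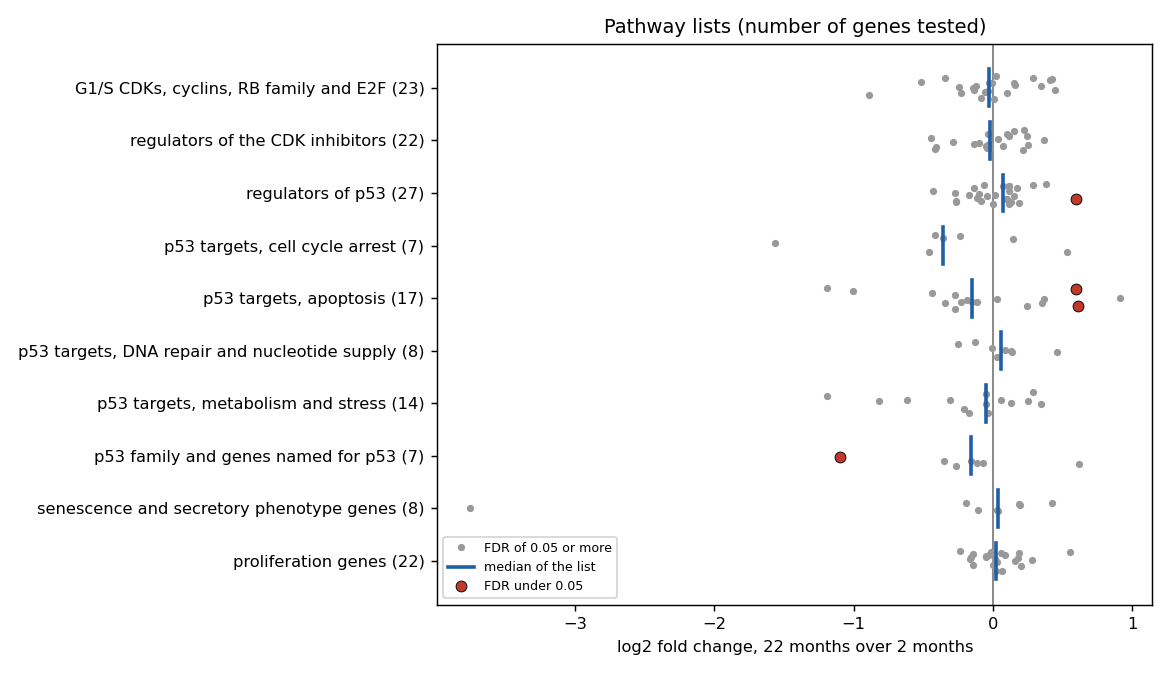
Log2 fold change of old over young ISCs, on the horizontal axis, for each tested gene of the pathway lists, 1 row a list with the number tested, a bar for the list's median and red points for genes with an FDR under 0.05. Medians range from −0.36 for the arrest targets of p53 (−0.15 without the first young pool) to 0.07 for its regulators (−0.02 without the second young pool), and the red points are Npm1, Casp1 and Perp on the higher side and Trp53i11 on the lower side.

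Of 58 p53 targets other than the 3 genes above, 46 were tested and 2 passed FDR 0.05, both higher in old ISCs, while 19 estimates were above 0 and 27 below, with a median of −0.08. Both belonged to the 18 apoptosis targets (17 tested, with a median of −0.15 that was 0.02 without the first young pool and 0.14 without the second old pool). Casp1, the caspase that matures interleukin-1β, rose from 42.9 ± 5.04 to 65.4 ± 4.82 CPM (SD, n = 2; counts of 570 and 701 in young and 819 and 840 in old pools), with a log2 fold change of 0.61 (SE 0.13, FDR 0.0223, edgeR). Perp, a p53-induced membrane protein that is also part of desmosomes, rose from 32.3 ± 6.58 to 48.9 ± 5.44 CPM (counts of 401 and 558 in young and 697 and 550 in old pools), with a log2 fold change of 0.60 (SE 0.15, FDR 0.0472, edgeR). Both calls were lost without the first young pool, at log2 fold changes of 0.49 for Casp1 and 0.40 for Perp. That for Perp was also lost without the first old pool, at 0.48. Nor was Perp called by DESeq2 (FDR 0.088), or by edgeR with upper quartile scaling (FDR 0.0672) or other filters (FDR 0.0632 and 0.0563). Of the other apoptosis targets, Eda2r, a receptor of the TNF receptor family, had 0.91 (FDR 0.293) and Pidd1 had −0.44 (FDR 0.290).

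None of the arrest, DNA repair and metabolism targets of p53 passed FDR 0.05, and at an unadjusted p under 0.05 there were 1, 0 and 2 higher and 0, 0 and 1 lower. DESeq2, limma voom and the likelihood ratio test also called 0 in these lists and among the regulators of the CDK inhibitors. Of the 12 arrest targets 7 were tested, with a median of −0.36 that was −0.15 without the first young pool, and Rprm, Zfp365 and Ptprv were at 0 counts in every pool. The stress gene Gadd45a had a log2 fold change of 0.53 (FDR 0.263), and Ccng2, a relative of Ccng1, had −0.46 (FDR 0.323). All 8 repair targets were tested, with a median of 0.06, and the damage-recognition gene Ddb2 had 0.46 (FDR 0.449). Of 20 metabolism and stress targets 14 were tested, with a median of −0.05, among them the ribosomal protein gene Rps27l at 0.35 (FDR 0.271) and the sestrin gene Sesn2 at −1.19 (FDR 0.294) on 10 to 38 counts a pool.

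Of 11 genes of the p53 family or named for p53, 7 were tested, 1 was called, and the family members Trp63 and Trp73 were at 0 counts in every pool. Trp53i11, a gene named as p53-inducible, fell from 18.3 ± 0.952 to 8.56 ± 3.65 CPM (SD, n = 2), with 275 and 266 counts in young and 79 and 136 in old pools. Its log2 fold change was −1.10 (SE 0.23, FDR 0.0166, edgeR), both old pools lay below both young pools, and it passed FDR 0.05 with any 1 pool left out, although it was −0.71 without the first old pool. Trp53bp1, a damage-response protein that binds p53, had −0.35 (FDR 0.239). Of 26 senescence and secretory phenotype genes 8 were tested, 0 passed (1 higher and 1 lower at an unadjusted p under 0.05) and the median was 0.03, while 8 were at 0 counts in every pool, including the cytokine gene Il6. Igfbp4, an insulin-like growth factor binding protein, had 0.42 (FDR 0.174), and Tgfb1, with 16 and 3 counts in young and 0 and 1 in old pools, had an FDR of 0.233 with edgeR's quasi-likelihood test and passed the likelihood ratio test (FDR 0.0467).

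**Figure D4:**
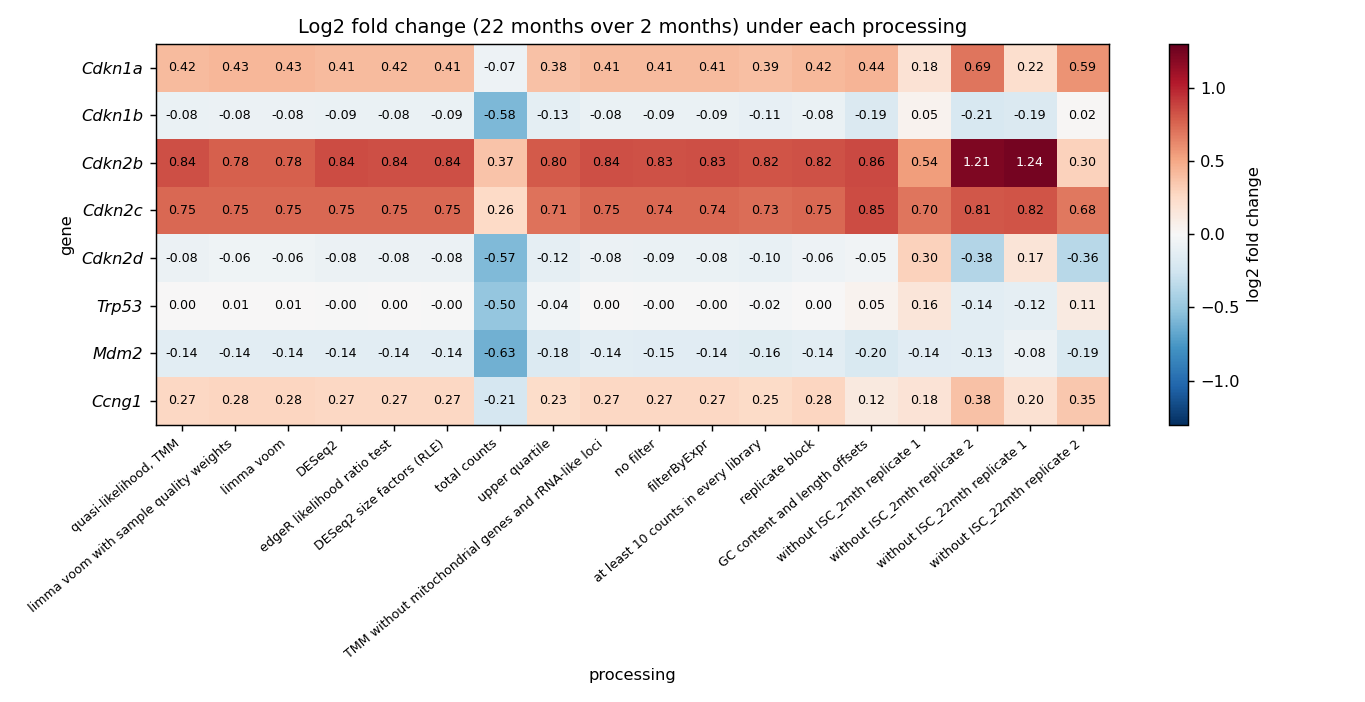
Heat map of the log2 fold change of old over young ISCs for the 8 genes tested (rows) under the reported fit and 17 alternative fits (columns), with the value written in each cell and the colour giving its sign and size. Cdkn2c stays between 0.26 and 0.85 in every fit, whereas scaling by total counts moves all 8 genes downwards and turns Cdkn1a, Trp53 and Ccng1 below 0, to −0.069, −0.50 and −0.21, which are 0.42, −0.0071 and 0.28 relative to the shift of all genes.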

How the data were processed

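RNA of FACS-isolated ISCs was amplified by SPIA without molecular identifiers and sequenced single-end. Reads were trimmed by the authors (Trimmomatic 0.30, with FastQC), aligned with STAR 2.4.2a to GRCm38 and counted over GENCODE vM15 exons with featureCounts, and the authors deposited raw counts per gene, not normalized or filtered. Depth was 11662654 to 15975698 counts per library, and counting intervals do not cover amplification.

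Ages and replicates came from the labels. Genes with more than 5 counts and more than 1 CPM in at least 1 library were kept (13692). edgeR 4.0.16 (R 4.3.3, TMM, glmQLFit and glmQLFTest, no covariate) compared the ages, with Benjamini-Hochberg adjustment over all genes kept. Normalised CPM are counts per TMM-scaled library. Alternatives were limma 3.58.1 voom, DESeq2 1.42.0, other scalings, filters, blocks and offsets, and each library left out. Positions and lengths came from GENCODE vM21. The fit was tested on counts simulated from its own model, which does not show how it handles real pools.

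The 10 genes and the lists were chosen with earlier results of these data known. All 10 are named, and of each list the genes with an FDR under 0.05 and otherwise up to 4 of lowest p (at most 6), of which some are given here.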

Additional observations from a re-analysis of the deposited data

How the results depend on the processing

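Of the 10 genes, 0 were called in the reported fit and in 16 of the 17 alternatives, including every fit with 1 library left out (0 to 0). Scaling by total counts called 3, all lower in old ISCs (Cdkn1b, Trp53 and Mdm2), while it moved the median of all genes by −0.49. Relative to that shift their log2 fold changes were −0.09, −0.0071 and −0.14. Over all genes, the 309 calls became 197 with DESeq2, 611 with the likelihood ratio test, 4650 with total counts (96 higher, 4554 lower), 554 without a filter, 124 with GC content and length offsets, and between 151 and 710 with 1 library left out. Of the pathway genes, the 4 calls became 73 with total counts, 0 with the offsets and between 1 and 7 with 1 library left out. With the replicate number as a block there were 623 calls over all genes, 5 in the pathway lists and 0 among the 10 genes, where the lowest FDR was 0.0833. Libraries of the same number did not deviate together over all genes (correlation across genes −0.00313). A single value over all genes cannot decide on a pairing that touches part of them, so pairing was not settled. The cause of these changes was not tested.

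With total counts Cdkn1a was −0.069 and Ccng1 −0.21, which were 0.42 and 0.28 relative to the shift of all genes, against 0.42 and 0.27 as reported. Cdkn1b turned in fits without 1 library, which ranged from −0.21 to 0.048, as did Cdkn2d, from −0.38 to 0.30. Trp53, near 0, was −0.0014 with DESeq2, −0.0012 with its size factors, −0.50 with total counts (−0.0071 relative to the shift), −0.040 with the upper quartile, −0.0045 without a filter, −0.0035 with filterByExpr, −0.020 with at least 10 counts in every library and between −0.14 and 0.16 without 1 library. Perp was called in 9 of 17 alternatives, Npm1 and Casp1 in 14 and Trp53i11 in 16. With a library left out, the lone pool of an age is assumed to vary like the other age. With 2 pools an age, p-values set each change against a spread between pools that is estimated in part from all genes. The 95% intervals in the report hold under TMM scaling only. With total counts Cdkn1b, Trp53, Mdm2 and Ccng1 lay outside their intervals, at −0.58, −0.50, −0.63 and −0.21. Relative to the shift of all genes these were −0.09, −0.0071, −0.14 and 0.28, inside the intervals.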

Other observations

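The balance of kinases and inhibitors within each pool was computed after the values were seen and was not tested. The summed level per length of Cdk4 and Cdk6, the kinases that the Ink4 proteins bind, was 11.0 and 10.6 times that of the 4 Ink4 genes in the young pools and 7.73 and 5.24 times in the old pools. Both old pools lay below both young pools, which restates the lower Cdk6 and the higher Cdkn2c and Cdkn2b given above. Among all single genes tested, the pools of the ages did not overlap for 47.6%. In the second old pool Cdkn2b gave 2.30 RPKM of the Ink4 sum on 39 counts. The level of Cdk2 was 0.551 and 0.525 times that of the 3 Cip/Kip genes in young and 0.437 and 0.535 times in old pools, and the pools of the ages overlapped.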
